A study of Mus musculus with 35 samples.

Results

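DNA replication genes were followed through the leukemias, 50 genes for origin licensing, the replicative helicase, the polymerases, the sliding clamp, nucleotide supply and the G1/S switch. They were taken by symbol from a fixed list, and 50 of 50 were found among the 24454 genes of the table. Each reached a normalized count of at least 10 in all 33 libraries. The study sequenced RNA from bone marrow cells of transplanted C57BL/6 mice, sorted for GFP and CD45.2. The donor cells carried a NUP98 fusion whose expression is regulatable by doxycycline, either NUP98-DDX10 (an RNA helicase partner), NUP98-JARID1A (a histone demethylase partner) or NUP98-NSD1 (a histone methyltransferase partner). Per fusion there were 3 libraries after 3 days of doxycycline at 4 mg/ml, 3 after 5 days and 4 from mice without it, of which 1 is titled day 3 and 3 are titled day 5. A further 3 libraries are titled control. Their labels list every fusion and no treatment and do not say what the cells carry. The labels give no age, do not name the promoter that drives a fusion, and number libraries, not mice or primary leukemias. The p-values therefore measure the spread between libraries, which may be technical.

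Before S phase, the origin recognition complex, CDC6 and CDT1 load the MCM helicase onto origins, a step called licensing that geminin blocks afterwards. The kinase CDC7, CDC45 and the GINS complex then switch the helicase on, primase and polymerase alpha start the strands, and polymerases delta and epsilon extend them on the PCNA clamp. Most of these genes are transcribed at the G1/S boundary under E2F factors, which the retinoblastoma protein holds back until cyclin kinases phosphorylate it. Acute myeloid leukemia blasts divide, while myeloid cells leave the cell cycle as they mature into granulocytes and macrophages.

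Promoter windows in the RefSeq table for GRCm38.p6 covered 41 of the 50 genes with 49 windows, each 250 bases before to 50 after a start that lay at the gene's outer end in 26 windows and inside the gene in the other 23. The other genes are Gmnn, Rfc2, Gins1, Mcm4, Gins2, Ccne2, Prim2, Pole and Gins4. The E2F words TTTCCCGC, TTTCGCGC, TTTGCCGC and TTTGGCGC were searched on both strands, and overlapping matches were counted. At least 1 word stood in 17 of 49 windows (34.7%), against 2.26% of all 32851 windows and 3.97% of the windows of genes kept in the expression fit. CCAAT, the letters bound by NF-Y, stood in 57.1% of the members' windows, 37.4% of all windows and 38% of those of genes kept. The E box CACGTG stood in 7 of 49 members' windows (14.3%), against 7.15% of all windows and 9.83% of those of genes kept. The middles of the 23 E2F matches lay from 161 bases before to 43 bases after the start of their window, with a median of 6 before it. A match is a description of the letters and not a bound site. The windows below show the letters of 3 helicase genes and of Dtl, picked because they hold a word. The day 5 response of these 4 genes differed between the fusions. Of other genes whose response differed, Lig1 had a word, while Mcm2, Chaf1b, Rrm1 and Ccne1 had 0. Whether the words go with that difference was not tested. The windows shown run 5′ to 3′ in the gene's direction, 170 bases before to 30 after the start, with the E2F words in capitals.
Mcm5, chr8:75109339-75109538, plus strand: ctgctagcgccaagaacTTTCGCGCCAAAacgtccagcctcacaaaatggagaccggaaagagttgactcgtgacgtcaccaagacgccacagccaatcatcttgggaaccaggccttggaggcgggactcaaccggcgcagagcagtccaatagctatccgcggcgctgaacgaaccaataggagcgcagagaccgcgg
Mcm6, chr1:128359676-128359875, minus strand: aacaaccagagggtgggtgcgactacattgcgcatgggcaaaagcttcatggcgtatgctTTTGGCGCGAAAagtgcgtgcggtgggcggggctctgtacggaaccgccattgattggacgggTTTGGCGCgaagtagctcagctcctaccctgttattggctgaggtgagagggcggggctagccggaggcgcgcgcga
Mcm7, chr5:138171854-138172053, minus strand: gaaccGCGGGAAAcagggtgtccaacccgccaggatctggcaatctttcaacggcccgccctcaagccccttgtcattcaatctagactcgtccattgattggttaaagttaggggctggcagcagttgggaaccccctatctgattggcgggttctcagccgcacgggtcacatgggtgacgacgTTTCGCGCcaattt
Dtl, chr1:191575515-191575714, minus strand: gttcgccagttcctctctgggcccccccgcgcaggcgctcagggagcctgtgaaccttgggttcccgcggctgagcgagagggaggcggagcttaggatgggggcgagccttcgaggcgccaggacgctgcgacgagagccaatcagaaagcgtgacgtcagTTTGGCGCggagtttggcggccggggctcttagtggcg
Mcm5 held 2 words and Mcm6 held 3, and in each gene 2 of them overlap on opposite strands in 1 run of 12 capitals. The Mcm7 words lay 161 bases before and 20 after the window's start, which lies 228 bases inside the gene, so both stand within it, and a second Mcm7 window held 0 words. Dtl had 1 word just before its start, which is the gene's outer end. E2f2 itself held 1 word, whose middle lay 43 bases after its start, and a second E2f2 window held 0.

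Fusion transcripts had rows of their own and were lower after doxycycline. NUP98-JARID1A had 3042 to 3489 normalized counts untreated, 90 to 99.8 at day 3 and 60.2 to 100.3 at day 5. NUP98-NSD1 had 52599 to 58498 untreated, 47.3 to 52 at day 3 and 40.3 to 58.1 at day 5. NUP98-DDX10 had 9003 to 14121 untreated, 3.19 to 7.29 at day 3 and 4.3 to 8.01 at day 5. The eGFP row had 305 to 339.6 normalized counts at day 5, against 9450.4 to 12506 untreated, in NUP98-JARID1A and 2.15 to 4.01 against 7445 to 14453 in NUP98-DDX10, while the labels give GFP as part of the sort. In the controls the NUP98-NSD1 and NUP98-DDX10 rows were at 0 in all 3 libraries, the NUP98-JARID1A row was at 2.52, 72 and 18.2, and eGFP at 13.9, 210.3 and 14.3. Gene reads per library ran over 12043487 to 28903870, with 18765492 to 28903870 in the NUP98-JARID1A day 5 libraries, and Ptprc, which encodes CD45, was present in all 33. Control replicate 3 stood apart, with 273893 summed normalized counts of neutrophil granule genes, against 3143345 and 3432998 in control replicates 1 and 2. Counts of replication genes against the controls are therefore given with and without it. Single genes and other gene lists are set against the controls with it included, except where stated.

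After 5 days of doxycycline, most of the replication machinery was lower. Averaged over the 3 fusions, 39 of 50 replication genes fell and 1 rose, against 23.4% of all 12682 genes tested that fell and 22.6% that rose. Here and below, fell and rose mean a limma adjusted p under 0.05, fold changes are log2 of doxycycline over untreated on log2(normalized count + 1), and the value after ± is the standard error. The median of the 50 genes was -0.41, and that of all genes tested was 0.00. The fall was uneven across fusions. In NUP98-JARID1A, 43 of 50 fell with a median of -0.72 (background 21.2% lower, 20.1% higher). In NUP98-NSD1, 25 fell with a median of -0.33 (background 11.9% lower, 13.5% higher). In NUP98-DDX10, 6 fell with a median of -0.05 (background 8.63% lower, 6.49% higher), in this fit a share not far from the background. With the controls left out of the fit that count was 11. DESeq2 also called 11 of 50 lower, against 1250 of all 12682 genes, so the share depends on the setting. In bulk RNA, fewer dividing cells and less RNA per cell cannot be told apart.

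Single libraries moved these counts. Without NUP98-NSD1 day 5 replicate 2 the NUP98-NSD1 count was 14 in place of 25. Without NUP98-DDX10 day 5 replicate 3 the NUP98-DDX10 count was 3 in place of 6, and without control replicate 3, which enters only the shared spread, it was 12. The NUP98-JARID1A count ran over 37 to 47 as each library was left out. With TMM factors 41 of 50 fell there, and with quantile normalization 42.

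**Figure D1:**
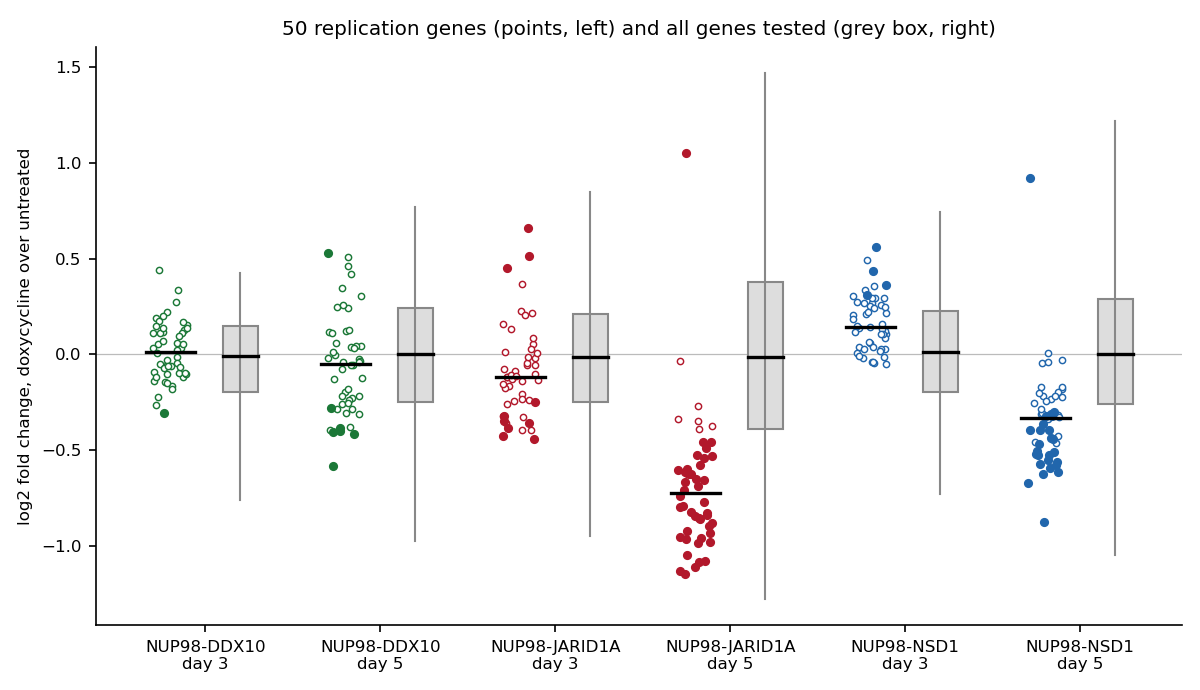
Log2 fold changes of the 50 replication genes (points, filled where the limma adjusted p was under 0.05) by fusion and day of doxycycline, with their median as a black line. Grey boxes span the 25th to 75th percentile of all genes tested and whiskers the 5th to 95th percentile; the points of NUP98-JARID1A day 5 sit lowest, with a median of -0.72, and 1 gene, E2f2, sits alone above 1.

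A count without a model was also made. Every day 5 value lay below every untreated value of the same fusion in 35 of 50 genes in NUP98-JARID1A (18.4% of all genes), 32 in NUP98-NSD1 (19.7%) and 18 in NUP98-DDX10 (19.4%). Every day 5 value lay above in 1 gene in NUP98-JARID1A (19.3% of all genes), 1 in NUP98-NSD1 (21.8%) and 6 in NUP98-DDX10 (18.7%). The 50 genes were also followed library by library. The median difference from the fusion's untreated mean was -0.585, -0.691 and -0.984 in the 3 NUP98-JARID1A day 5 libraries, in which 41, 48 and 49 genes lay below that mean. It was -0.256, -0.516 and -0.325 in NUP98-NSD1, with 41, 49 and 47 genes below, and -0.051, -0.091 and -0.089 in NUP98-DDX10, with 28, 33 and 31 below. Replicate 3 was the lowest NUP98-JARID1A library and replicate 2 the lowest NUP98-NSD1 library.

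**Figure D2:**
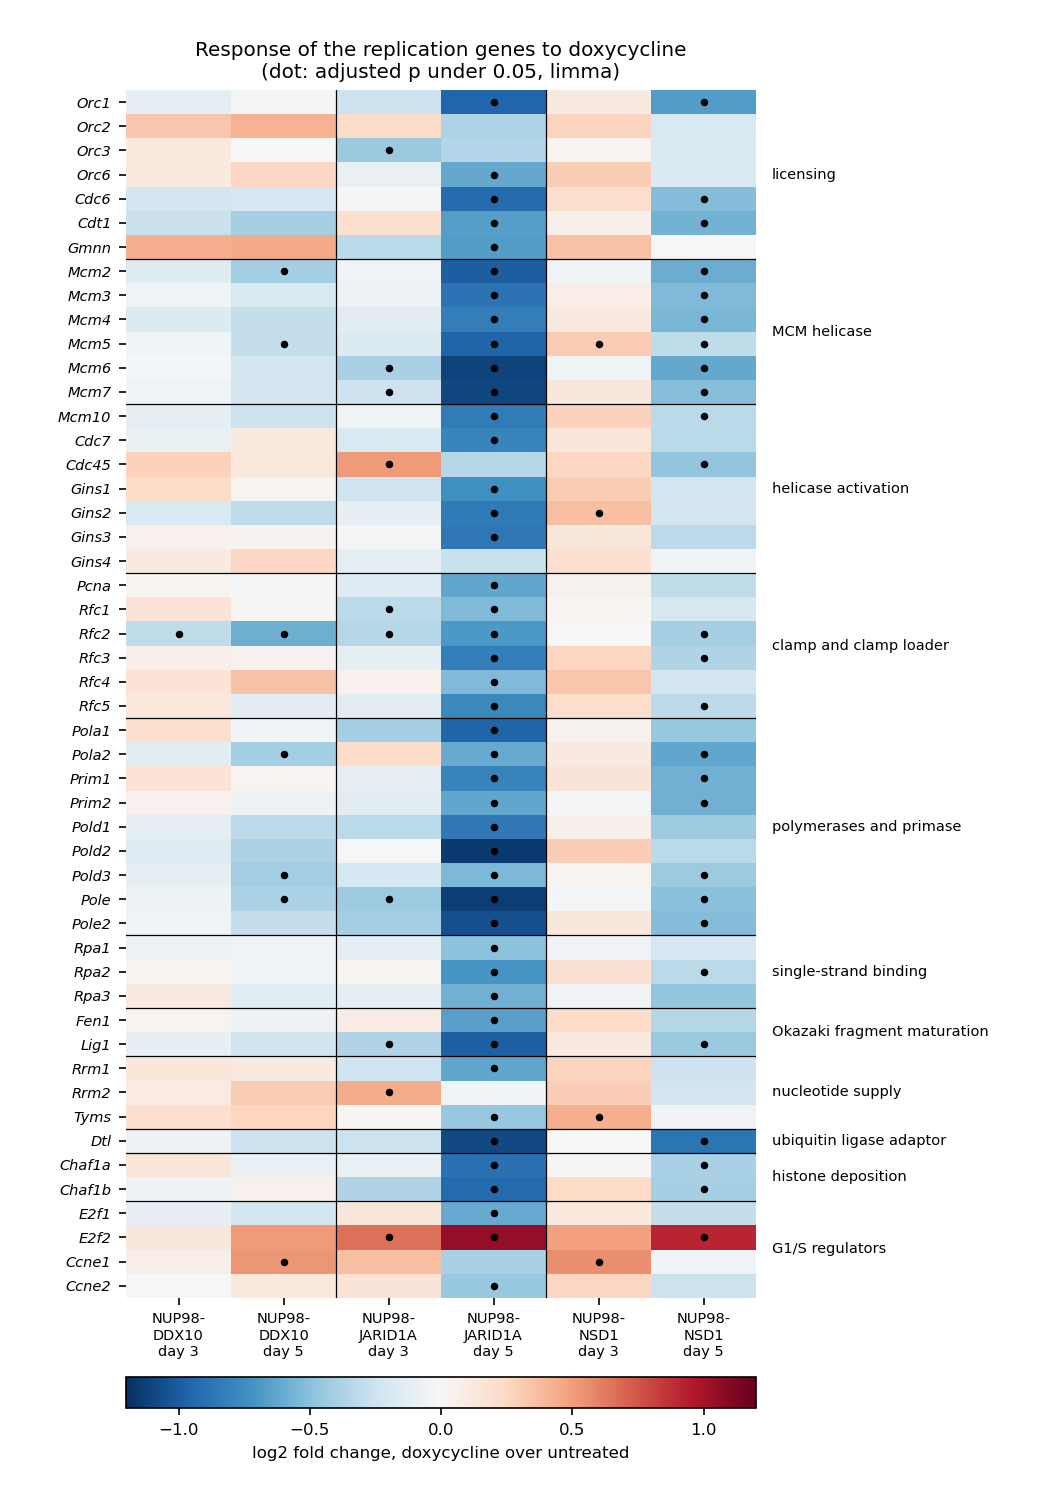
Log2 fold change, doxycycline over untreated, of each replication gene (rows, grouped by role) by fusion and day (columns); a dot marks a limma adjusted p under 0.05. Blue fills the NUP98-JARID1A day 5 column in every role except for E2f2, which is red at day 5 in all 3 fusions.

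The MCM helicase fell as a whole in 2 fusions: 6 of 6 fell in the mean of the fusions (median -0.58), 6 for NUP98-JARID1A (median -0.97), 6 in NUP98-NSD1 (median -0.54) and 2, Mcm2 and Mcm5, in NUP98-DDX10 (median -0.26). Mcm7 had 2813, 2757, 2736 and 2753 normalized counts in untreated NUP98-DDX10 libraries, 2547, 2804 and 2669 at day 3 and 2361, 2358 and 2356 at day 5. Mcm7 in NUP98-JARID1A libraries had 2635, 2933, 2648 and 2798 normalized counts untreated, 2565, 2207 and 2181 at day 3 and 1331, 1435 and 1133 at day 5. Mcm7 in NUP98-NSD1 libraries had 2117, 2127, 1867 and 1975 normalized counts untreated, 2328, 2030.1 and 2323 at day 3 and 1497, 1288 and 1468 at day 5. In all 3 fusions the day 5 values lay below the untreated ones and below day 3, and the NUP98-DDX10 step was the smallest. The fold change of Mcm7 (chromosome 5), one of the core subunits, was -1.09 ± 0.088 (adjusted p = 1.75e-10) in NUP98-JARID1A and -0.51 ± 0.088 (adjusted p = 6.43e-05) in NUP98-NSD1. In NUP98-DDX10 it was -0.23 ± 0.088 (adjusted p = 0.0766), short of the threshold.

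Mcm6 had 10615, 10909, 10415 and 9834 normalized counts in untreated NUP98-DDX10 libraries, 10091, 10419.6 and 10459.6 at day 3 and 9041, 9555 and 8376 at day 5. Mcm6 in NUP98-JARID1A libraries had 10221, 9237, 9633 and 11310.5 normalized counts untreated, 6959, 7747 and 8485 at day 3 and 6179, 4674 and 3512 at day 5. Mcm6 in NUP98-NSD1 libraries had 7869, 9508, 7818 and 9272 normalized counts untreated, 8636, 7555 and 8746 at day 3 and 6578, 4778 and 5604 at day 5. Mcm6 (chromosome 1), another core subunit, again had day 5 values below the untreated ones in each fusion. Its fold change was -1.11 ± 0.13 (adjusted p = 1.07e-07) in NUP98-JARID1A, -0.61 ± 0.13 (adjusted p = 0.000758) in NUP98-NSD1 and -0.22 ± 0.13 (adjusted p = 0.277) in NUP98-DDX10. The 3 NUP98-JARID1A libraries were spread widely, with replicate 3 lowest.

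Mcm5 had 3231, 3295, 3267 and 3031 normalized counts in untreated NUP98-DDX10 libraries, 2842, 3324 and 3259 at day 3 and 2647, 2689 and 2571 at day 5. Mcm5 in NUP98-JARID1A libraries had 2845, 2991, 3104 and 3055 normalized counts untreated, 2774, 2685 and 2570.0 at day 3 and 1443, 1779 and 1414 at day 5. Mcm5 in NUP98-NSD1 libraries had 2452, 2788, 2318 and 2568 normalized counts untreated, 3146, 2901 and 3352 at day 3 and 2165.7, 1839 and 2162 at day 5. Mcm5 (chromosome 8) parted the fusions at day 3: its NUP98-NSD1 values lay above the untreated ones, its NUP98-JARID1A values below them, and those of NUP98-DDX10 overlapped. At day 5 all lay below untreated, with fold changes of -0.96 ± 0.085 (adjusted p = 7.97e-10) in NUP98-JARID1A, -0.30 ± 0.085 (adjusted p = 0.00901) in NUP98-NSD1 and -0.28 ± 0.085 (adjusted p = 0.0232) in NUP98-DDX10. The NUP98-NSD1 call was lost without day 5 replicate 2 (adjusted p = 0.0971), and the NUP98-DDX10 call in 5 of 33 fits that each left out 1 library (adjusted p 0.051 to 0.0978), those without untreated replicate 2 or 3 or any 1 of the day 5 libraries.

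Mcm2 had 6573, 5982, 6345 and 6095 normalized counts in untreated NUP98-DDX10 libraries, 5477, 5873 and 5615 at day 3 and 4728, 5104 and 4325 at day 5. Mcm2 in NUP98-JARID1A libraries had 5042, 5676, 5477 and 5460.1 normalized counts untreated, 5534, 5202 and 4897 at day 3 and 2629.8, 3002 and 2582 at day 5. Mcm2 in NUP98-NSD1 libraries had 3853, 4277, 3671 and 3816 normalized counts untreated, 3762, 3533 and 4092 at day 3 and 2833, 2331 and 2601 at day 5. Mcm2 (chromosome 6), the subunit that also handles parental histones, was lower at day 5 than untreated in every fusion with no overlap. The fold change was -0.99 ± 0.12 (adjusted p = 1.5e-07) in NUP98-JARID1A, -0.59 ± 0.12 (adjusted p = 0.00037) in NUP98-NSD1 and -0.41 ± 0.12 (adjusted p = 0.0184) in NUP98-DDX10. The NUP98-DDX10 call was lost without day 5 replicate 1 or 3 (adjusted p 0.0511 to 0.115). Mcm3 and Mcm4 had mean day 5 fold changes of -0.53 and -0.56.

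**Figure D3:**
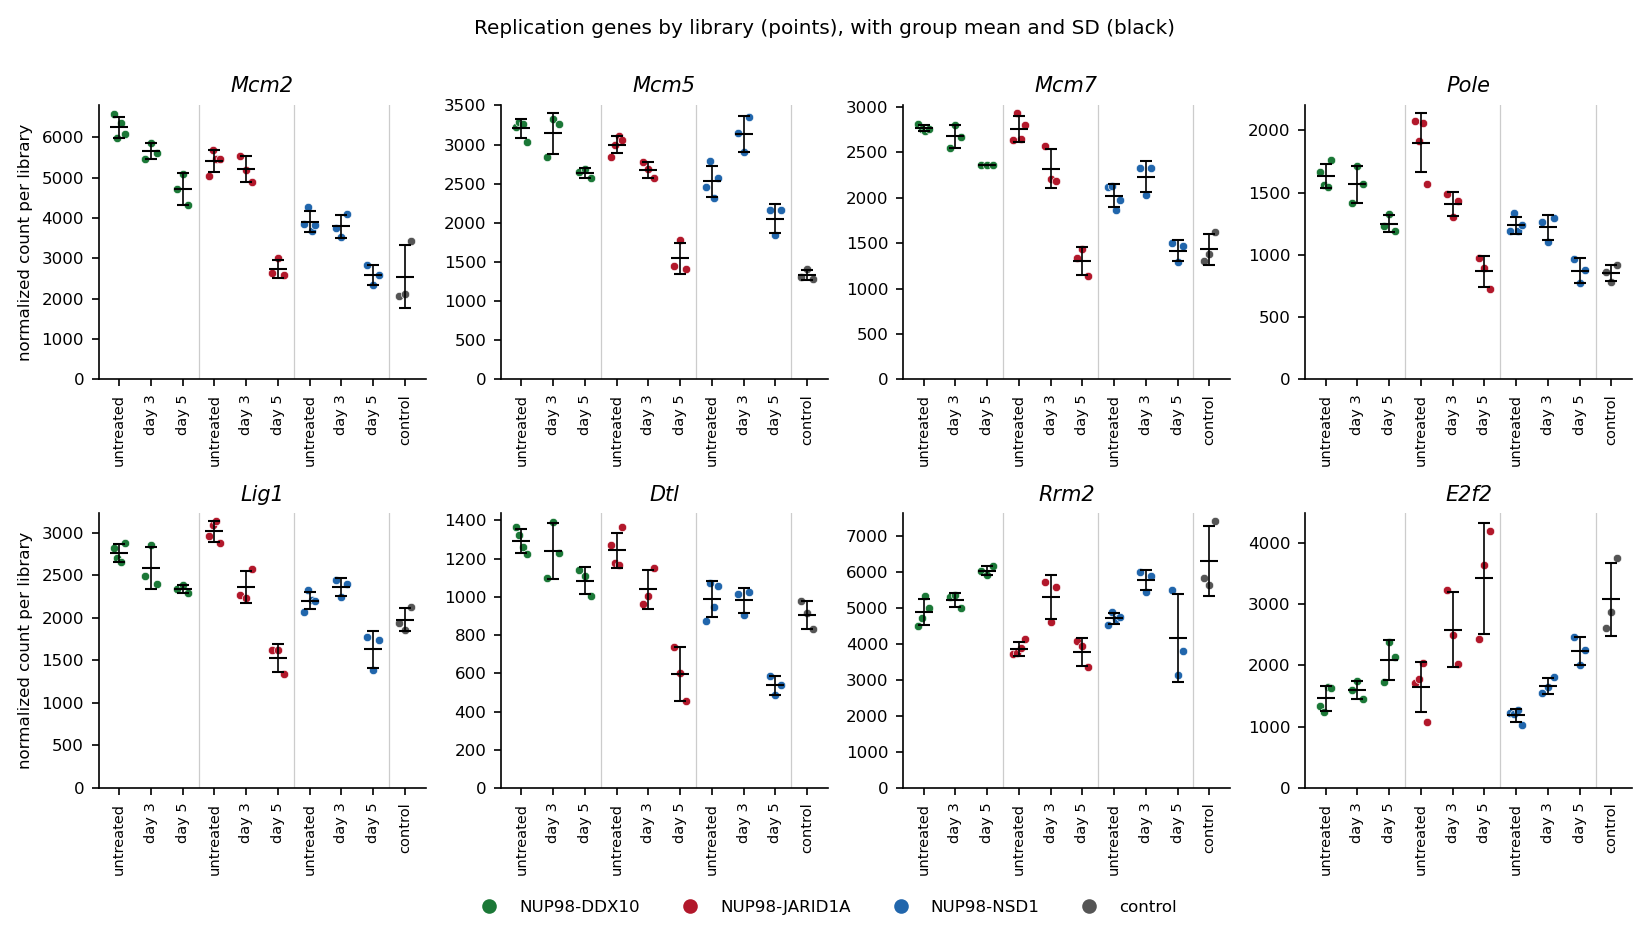
Normalized counts of 8 replication genes in each library (points) with the group mean and SD (black) for each fusion untreated, at day 3 and at day 5, and for the controls on the right. Mcm2, Mcm5, Mcm7, Pole, Lig1 and Dtl are lowest at day 5 within each fusion, while E2f2 is highest at day 5 and Rrm2 follows neither pattern.

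Licensing factors were mixed: 3 of 7, Orc1, Cdc6 and Cdt1, fell in the mean of the fusions, and 5 of 7, these with Orc6 and Gmnn, fell in NUP98-JARID1A. Cdt1 had 2755, 2310.3, 2669 and 2971 normalized counts in untreated NUP98-DDX10 libraries, 2257, 2459.9 and 1962 at day 3 and 1986, 2117 and 1982 at day 5. Cdt1 in NUP98-JARID1A libraries had 2316, 2949.9, 2848 and 1899 normalized counts untreated, 3774, 2357 and 2567 at day 3 and 1066, 1771 and 2026 at day 5. Cdt1 in NUP98-NSD1 libraries had 1769, 1717, 1533 and 1592 normalized counts untreated, 1592, 1714 and 1862 at day 3 and 1267, 943 and 1159 at day 5. Cdt1 (chromosome 8), which brings the helicase to the origin, was below its untreated range at day 5 in NUP98-NSD1 and NUP98-DDX10, while in NUP98-JARID1A replicate 3 lay among the untreated values. Its fold change was -0.54 ± 0.11 (adjusted p = 0.000162) in the mean of the fusions and -0.66 ± 0.18 (adjusted p = 0.00554) in NUP98-JARID1A, where the call was lost without day 5 replicate 1 (adjusted p = 0.087). In NUP98-NSD1 it was -0.57 ± 0.18 (adjusted p = 0.0245), a call lost in 3 of 33 such fits, those without untreated replicate 1 or 2 or day 5 replicate 2 (adjusted p 0.054 to 0.148). Orc1 and Cdc6, which start the assembly on DNA, had mean fold changes of -0.55 ± 0.11 (adjusted p = 0.000194) and -0.55 ± 0.072 (adjusted p = 4.51e-07). Orc2, Orc3, Orc6 and Gmnn, which encodes geminin, did not pass, with mean fold changes of -0.05, -0.17, -0.18 and -0.07. In NUP98-JARID1A Orc6 was at -0.62 ± 0.21 (adjusted p = 0.0227) and Gmnn at -0.67 ± 0.24 (adjusted p = 0.0285), and each call was lost in 3 of 33 fits that left out 1 library, those without untreated replicate 4 or day 5 replicate 2 or 3 (adjusted p 0.0567 to 0.435 and 0.0921 to 0.33).

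Of the 7 helicase activators, 6 fell in the mean of the fusions and 5 in NUP98-JARID1A, with Gins2 at -0.85 ± 0.11 (adjusted p = 8.22e-07) and the kinase gene Cdc7 at -0.79 ± 0.16 (adjusted p = 0.000257) there. Cdc45 had 1050.1, 1163, 1215 and 1015 normalized counts in untreated NUP98-DDX10 libraries, 1365, 1224 and 1442 at day 3 and 1248, 1185 and 1188 at day 5. Cdc45 in NUP98-JARID1A libraries had 848, 773, 687 and 944 normalized counts untreated, 1018, 1079 and 1392 at day 3 and 746, 649 and 538 at day 5. Cdc45 in NUP98-NSD1 libraries had 933, 1064, 917 and 1019.5 normalized counts untreated, 1231, 1132 and 1148 at day 3 and 847, 539 and 778 at day 5. Cdc45 (chromosome 16) went another way: day 3 values lay above untreated ones in all 3 fusions, and day 5 values lay below untreated in NUP98-NSD1 alone. Its mean fold change was 0.35 ± 0.086 (adjusted p = 0.00487) at day 3 and -0.23 ± 0.086 (adjusted p = 0.0306) at day 5. The day 5 call was lost in 5 of 33 fits that left out 1 library (adjusted p 0.0507 to 0.104): without NUP98-DDX10 untreated replicate 3, NUP98-JARID1A untreated replicate 4 or day 5 replicate 3, or NUP98-NSD1 untreated or day 5 replicate 2.

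The PCNA clamp and its loader fell in 5 of 6 members in the mean of the fusions, 6 in NUP98-JARID1A, 3 in NUP98-NSD1 and 1 in NUP98-DDX10. Of these calls, that of Rfc4 in NUP98-JARID1A (adjusted p = 0.0467) was lost in 21 of 33 fits that left out 1 library (adjusted p up to 0.415), and that of Rfc3 in NUP98-NSD1 (adjusted p = 0.0388) in 7 of 33 (adjusted p 0.0604 to 0.153), each without a NUP98-NSD1 untreated or day 5 library. Rfc2 had 4025, 4036, 3999 and 4293 normalized counts in untreated NUP98-DDX10 libraries, 3303, 3612 and 3008 at day 3 and 2964, 2799.9 and 2451 at day 5. Rfc2 in NUP98-JARID1A libraries had 3307, 3739, 3374 and 3487 normalized counts untreated, 2850.4, 2606 and 2741 at day 3 and 1958, 2226 and 2304 at day 5. Rfc2 in NUP98-NSD1 libraries had 2835, 2851, 2754 and 2788 normalized counts untreated, 2894, 2647 and 2932 at day 3 and 2109.7, 2083 and 2213 at day 5. Rfc2 (chromosome 5), a loader subunit, was already below the untreated range at day 3 in NUP98-DDX10 and NUP98-JARID1A, and below it in all 3 at day 5. Its day 5 fold change was -0.58 ± 0.076 (adjusted p = 6.29e-06) in NUP98-DDX10, -0.69 ± 0.076 (adjusted p = 4.92e-08) in NUP98-JARID1A and -0.40 ± 0.076 (adjusted p = 0.000299) in NUP98-NSD1. In NUP98-DDX10 this was the lowest fold change of the 50 genes. Pcna had a mean fold change of -0.32 ± 0.083 (adjusted p = 0.00234), and its level is uncertain because it may share reads with its pseudogenes Pcna-ps1 and Pcna-ps2.

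All 9 polymerase and primase genes fell in the mean of the fusions (median -0.53) and 9 of 9 in NUP98-JARID1A (median -0.86). In NUP98-NSD1 6 fell, and in NUP98-DDX10 3, Pola2, Pold3 and Pole. The NUP98-NSD1 call of Prim1, the catalytic subunit of primase (adjusted p = 0.046), was lost in 18 of 33 fits that left out 1 library (adjusted p 0.0511 to 0.178). Pole had 1663, 1565, 1546 and 1759 normalized counts in untreated NUP98-DDX10 libraries, 1419, 1712 and 1569 at day 3 and 1235, 1328 and 1191 at day 5. Pole in NUP98-JARID1A libraries had 2072, 1914, 2055 and 1566 normalized counts untreated, 1489, 1306 and 1432 at day 3 and 974, 898 and 729.7 at day 5. Pole in NUP98-NSD1 libraries had 1190.1, 1333, 1189 and 1239 normalized counts untreated, 1265, 1104 and 1293 at day 3 and 969.8, 776 and 877 at day 5. Pole (chromosome 5), the catalytic subunit of the leading-strand polymerase, was below its untreated range at day 5 in each fusion, and at day 3 in NUP98-JARID1A alone. The fold change was -1.13 ± 0.11 (adjusted p = 2.37e-09) in NUP98-JARID1A, -0.51 ± 0.11 (adjusted p = 0.00069) in NUP98-NSD1 and -0.38 ± 0.11 (adjusted p = 0.014) in NUP98-DDX10. The NUP98-DDX10 call was lost without untreated replicate 4 or day 5 replicate 3 (adjusted p 0.0505 to 0.0787). Pold2, a subunit of polymerase delta, had the lowest fold change of the 50 in NUP98-JARID1A, -1.15 ± 0.15 (adjusted p = 7.25e-07). Pola2, the accessory B subunit of polymerase alpha, had -0.60 in NUP98-JARID1A, -0.63 in NUP98-NSD1 and -0.40 in NUP98-DDX10.

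Both Okazaki fragment genes and the single-strand binding genes also fell in the mean of the fusions. Lig1 had 2819, 2701, 2650.3 and 2877 normalized counts in untreated NUP98-DDX10 libraries, 2491, 2860.3 and 2398 at day 3 and 2336, 2379 and 2289 at day 5. Lig1 in NUP98-JARID1A libraries had 2959, 3089.7, 3138 and 2876 normalized counts untreated, 2263, 2236 and 2574 at day 3 and 1627, 1623 and 1340.2 at day 5. Lig1 in NUP98-NSD1 libraries had 2072, 2328, 2214 and 2193 normalized counts untreated, 2447, 2246 and 2402 at day 3 and 1771, 1382 and 1734 at day 5. Lig1 (chromosome 7), the ligase that seals lagging-strand fragments, was below its untreated range at day 5 in each fusion. Its fold change was -0.98 ± 0.087 (adjusted p = 9.97e-10) in NUP98-JARID1A, -0.44 ± 0.087 (adjusted p = 0.000374) in NUP98-NSD1 and -0.24 ± 0.087 (adjusted p = 0.0609) in NUP98-DDX10, where it did not pass. Fen1, the flap nuclease, had a mean fold change of -0.35 ± 0.076 (adjusted p = 0.000469).

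Rpa1 had 1987, 1969, 2041 and 1809 normalized counts in untreated NUP98-DDX10 libraries, 1802, 1832 and 1941 at day 3 and 1808, 2042 and 1837 at day 5. Rpa1 in NUP98-JARID1A libraries had 2343, 2185, 2193 and 2223 normalized counts untreated, 2051, 2089.9 and 2068 at day 3 and 1704, 1696 and 1399 at day 5. Rpa1 in NUP98-NSD1 libraries had 2100.5, 2165, 2117 and 2049 normalized counts untreated, 2023, 1955 and 2159 at day 3 and 1769, 1847 and 1891 at day 5. Rpa1 (chromosome 11), the large subunit of replication protein A, was lower at day 5 than untreated without overlap in NUP98-JARID1A and NUP98-NSD1, and passed the test in NUP98-JARID1A, at -0.49 ± 0.12 (adjusted p = 0.00165). It was -0.20 ± 0.12 (adjusted p = 0.242) in NUP98-NSD1 and -0.04 ± 0.12 (adjusted p = 0.86) in NUP98-DDX10, neither of which passed. Rpa2 and Rpa3, the smaller subunits, had mean fold changes of -0.36 and -0.39, and both passed.

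Of the 3 nucleotide supply genes, 1, Rrm1, fell in the mean of the fusions, day 5 over untreated, and 2, Rrm1 and Tyms, in NUP98-JARID1A. Rrm1 had 7872, 8036, 7482 and 7328 normalized counts in untreated NUP98-DDX10 libraries, 8369, 8799 and 8181 at day 3 and 8809, 7984 and 8089 at day 5. Rrm1 in NUP98-JARID1A libraries had 10021, 7832, 9182 and 9618 normalized counts untreated, 6814, 7353 and 9285 at day 3 and 7765, 5664 and 4756 at day 5. Rrm1 in NUP98-NSD1 libraries had 7704, 8138, 8103 and 9021 normalized counts untreated, 10516, 9240.4 and 9998 at day 3 and 7632, 6211 and 7041 at day 5. Rrm1 (chromosome 7), the large subunit of ribonucleotide reductase, lay below untreated at day 5 in NUP98-JARID1A and NUP98-NSD1, and its fold change was -0.62 ± 0.12 (adjusted p = 0.00016) in NUP98-JARID1A, -0.25 ± 0.12 (adjusted p = 0.144) in NUP98-NSD1 and 0.11 ± 0.12 (adjusted p = 0.588) in NUP98-DDX10.

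Rrm2 had 4497, 4731, 5341 and 4997 normalized counts in untreated NUP98-DDX10 libraries, 5298, 5361 and 4987 at day 3 and 6025, 5901 and 6156 at day 5. Rrm2 in NUP98-JARID1A libraries had 3712, 3742, 3882 and 4134 normalized counts untreated, 5709, 4604 and 5592 at day 3 and 4074, 3939 and 3348 at day 5. Rrm2 in NUP98-NSD1 libraries had 4520.0, 4882, 4679.8 and 4740.2 normalized counts untreated, 5984, 5453 and 5880.0 at day 3 and 5507, 3140.1 and 3808 at day 5. Rrm2 (chromosome 12), the small subunit, lay above untreated at day 3 in NUP98-JARID1A and NUP98-NSD1 and at day 5 in NUP98-DDX10, and the NUP98-NSD1 day 5 libraries were spread on both sides of untreated. Its mean fold change was 0.28 ± 0.072 (adjusted p = 0.00655) at day 3 and 0.02 ± 0.072 (adjusted p = 0.875) at day 5. Tyms, which makes thymidylate, had 0.21 ± 0.059 (adjusted p = 0.0112) at day 3 and -0.08 ± 0.059 (adjusted p = 0.277) at day 5. In NUP98-JARID1A at day 5 Tyms was at -0.46 ± 0.10 (adjusted p = 0.000706). Day 5 over day 3, all 3 genes fell in the mean of the fusions, Rrm1 at -0.31 ± 0.075 (adjusted p = 0.00267), Rrm2 at -0.26 ± 0.077 (adjusted p = 0.0113) and Tyms at -0.29 ± 0.063 (adjusted p = 0.000892).

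Dtl had 1366, 1321, 1259 and 1225 normalized counts in untreated NUP98-DDX10 libraries, 1099.8, 1390.3 and 1230.3 at day 3 and 1141, 1107 and 1005 at day 5. Dtl in NUP98-JARID1A libraries had 1271, 1177, 1164 and 1363 normalized counts untreated, 961, 1003 and 1151 at day 3 and 737, 602 and 453 at day 5. Dtl in NUP98-NSD1 libraries had 876, 1074, 947 and 1057 normalized counts untreated, 1014, 905 and 1024 at day 3 and 588, 489 and 536 at day 5. Dtl (chromosome 1), the adaptor that directs CDT1 to a ubiquitin ligase, was below its untreated range at day 5 in all 3 fusions. It had the lowest mean fold change of the 50 genes, -0.74 ± 0.069 (adjusted p = 1.23e-09). The fold change was -1.08 ± 0.12 (adjusted p = 4.13e-08) in NUP98-JARID1A, -0.88 ± 0.12 (adjusted p = 2.52e-06) in NUP98-NSD1 and -0.25 ± 0.12 (adjusted p = 0.155) in NUP98-DDX10.

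Chaf1b had 785, 718, 849 and 854 normalized counts in untreated NUP98-DDX10 libraries, 749, 804 and 748 at day 3 and 805, 856 and 833 at day 5. Chaf1b in NUP98-JARID1A libraries had 866, 1013, 971 and 863 normalized counts untreated, 804, 704 and 663 at day 3 and 390.3, 554 and 522 at day 5. Chaf1b in NUP98-NSD1 libraries had 698, 637, 558 and 577 normalized counts untreated, 755, 679.7 and 754 at day 3 and 603, 361 and 471 at day 5. Chaf1b (chromosome 16), a subunit of the chromatin assembly factor that lays histones on new DNA, was below its untreated range at day 5 in NUP98-JARID1A, while NUP98-NSD1 and NUP98-DDX10 values overlapped. Its fold change was -0.94 ± 0.13 (adjusted p = 1.69e-06) in NUP98-JARID1A, -0.39 ± 0.13 (adjusted p = 0.0255) in NUP98-NSD1 and 0.06 ± 0.13 (adjusted p = 0.825) in NUP98-DDX10. The NUP98-NSD1 call was lost in 4 of 33 fits that left out 1 library (adjusted p 0.0583 to 0.305), those without untreated replicate 1 or 2 or day 5 replicate 2 or 3. Chaf1a, its partner subunit, had a mean fold change of -0.46 ± 0.063 (adjusted p = 1.05e-06).

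Among the 4 G1/S regulators, E2f1 fell, at -0.37 ± 0.095 (adjusted p = 0.0021) in the mean of the fusions, and E2f2 was the 1 replication gene that rose in that mean. E2f2 had 1339, 1245, 1641 and 1626 normalized counts in untreated NUP98-DDX10 libraries, 1597, 1749 and 1453 at day 3 and 1735, 2384 and 2134 at day 5. E2f2 in NUP98-JARID1A libraries had 1722, 1780.2, 2034 and 1073 normalized counts untreated, 3231, 2501 and 2019 at day 3 and 2432, 3638 and 4192 at day 5. E2f2 in NUP98-NSD1 libraries had 1223, 1203, 1281 and 1031 normalized counts untreated, 1551, 1644 and 1804 at day 3 and 2458, 2005 and 2256 at day 5. E2f2 (chromosome 4), an activating E2F factor, was above its untreated range at day 5 in every fusion and at day 3 in NUP98-NSD1. The fold change was 1.05 ± 0.19 (adjusted p = 6.36e-05) in NUP98-JARID1A, 0.92 ± 0.19 (adjusted p = 0.0006) in NUP98-NSD1 and 0.51 ± 0.19 (adjusted p = 0.0692) in NUP98-DDX10, which did not pass. The F-test of a difference between the fusions gave adjusted p = 0.249 for E2f2.

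Ccne1 had 427, 479, 516 and 429.8 normalized counts in untreated NUP98-DDX10 libraries, 502, 497 and 455 at day 3 and 624, 649.7 and 727 at day 5. Ccne1 in NUP98-JARID1A libraries had 419.9, 439, 453 and 535 normalized counts untreated, 613, 526.2 and 645 at day 3 and 359, 381 and 313 at day 5. Ccne1 in NUP98-NSD1 libraries had 473, 463, 474 and 445 normalized counts untreated, 674, 651 and 732 at day 3 and 562, 335 and 496 at day 5. Ccne1 (chromosome 7), cyclin E1, lay above untreated at day 5 in NUP98-DDX10 and below it in NUP98-JARID1A, and above it at day 3 in NUP98-NSD1. The day 5 fold change was 0.53 ± 0.18 (adjusted p = 0.0459) in NUP98-DDX10, a call lost in 23 of 33 fits that left out 1 library of any of the fusions (adjusted p 0.0501 to 0.183). It was -0.39 ± 0.18 (adjusted p = 0.0823) in NUP98-JARID1A and -0.03 ± 0.18 (adjusted p = 0.937) in NUP98-NSD1, neither of which passed. Ccne2, cyclin E2, had a mean fold change of -0.20 ± 0.11 (adjusted p = 0.139).

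The 17 genes with an E2F word in a promoter window and the 24 with a window and no word were set side by side. Some windows with a word start well inside the gene, that of Orc1 by 3749 bases and that of Lig1 by 1651. Lig1's window at the gene's outer end held 0 words. Of the 17, 15 fell and 1, E2f2, rose in the mean of the fusions, with a median of -0.534. Of the 24, 18 fell and 0 rose, with a median of -0.341. In NUP98-JARID1A the medians were -0.926 and -0.618, with 15 of 17 and 20 of 24 falling. The difference was not tested.

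At day 3, with fusion transcripts already low, most replication genes had not passed the threshold. In the mean of the fusions 6 rose and 1 fell, against 8.67% and 9.88% of all genes, and the median was 0.03. The risers were Cdc45, Rrm2 and Tyms, given above, with E2f2 at 0.43 ± 0.11 (adjusted p = 0.0064), Ccne1 at 0.33 ± 0.10 (adjusted p = 0.0247) and Orc2 at 0.28 ± 0.088 (adjusted p = 0.0281). The 1 gene that fell was Rfc2, at -0.22 ± 0.044 (adjusted p = 0.000896). The Ccne1 call was lost without NUP98-JARID1A or NUP98-NSD1 day 3 replicate 3 (adjusted p 0.0509 to 0.0516), and that of Orc2 in 4 of 33 fits that left out 1 library (adjusted p 0.0523 to 0.0772), those without NUP98-DDX10 day 3 replicate 2, NUP98-JARID1A untreated replicate 2 or day 3 replicate 3, or NUP98-NSD1 day 3 replicate 1.

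Within fusions the day 3 calls were few and changed with single libraries. In NUP98-JARID1A 3 rose, Cdc45, Rrm2 and E2f2, and 7 fell, Orc3, Mcm6, Mcm7, Rfc1, Rfc2, Pole and Lig1 (background 8.11% higher, 7.61% lower). That total of 10 was 5 without untreated replicate 4 or day 3 replicate 1, and 6 without untreated replicate 1 or day 3 replicate 2. In NUP98-NSD1 4 rose, Mcm5, Gins2, Tyms and Ccne1, and 0 fell (background 4.55% higher, 4.57% lower). That total was 1 without untreated replicate 3 or day 3 replicate 1 or 3, and 2 without any other NUP98-NSD1 untreated or day 3 library. The NUP98-NSD1 call of Ccne1 (adjusted p = 0.0474) was lost in 25 of 33 fits that left out 1 library (adjusted p 0.0515 to 0.165). The NUP98-JARID1A call of Mcm7 (adjusted p = 0.0499) was lost in 24 of 33 (adjusted p 0.0513 to 0.186). Many of these fits left out a library of another fusion. Even so, every day 3 value lay above every untreated value in 19 of 50 genes in NUP98-NSD1 (19.7% of all genes), and below it in 0 of 50 (17.6%). NUP98-JARID1A went the other way, with 2 of 50 above (13.4%), 13 below (13.6%) and a median fold change of -0.12. For NUP98-DDX10 the counts were 6 above (9.6%) and 5 below (11.9%). In NUP98-DDX10 1 gene, Rfc2, fell, at -0.31 ± 0.076 (adjusted p = 0.0394), and 0 rose (background 0.946% lower, 0.134% higher). That call was lost in 8 of 33 fits, those without any 1 of the untreated NUP98-DDX10 libraries, NUP98-DDX10 day 3 replicate 1 or 3, or NUP98-NSD1 untreated replicate 2 or 3 (adjusted p 0.0514 to 0.372).

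The step between the days was tested directly. Day 5 over day 3, in the mean of the fusions, 43 of 50 fell and 1, E2f2 at 0.40 ± 0.12 (adjusted p = 0.0122), rose (background 13.4% lower, 14.3% higher). The median was -0.43, and Pold2 (-0.67), Dtl (-0.63) and Pola2 (-0.60) were lowest. In NUP98-JARID1A 40 fell and 0 rose (background 10.4% lower, 9.54% higher). In NUP98-NSD1 33 fell and 0 rose (background 4.95% lower, 5.66% higher). In NUP98-DDX10 limma called 0 lower and 0 higher (background 0.497% lower, 0.434% higher). At an unadjusted p under 0.05, 8 of 50 passed in NUP98-DDX10, 7 lower and 1, Ccne1 at 0.46, higher, against 5.78% and 5.91% of all genes. There edgeR called 0 of 50, and DESeq2 called 2 lower and 0 higher. The NUP98-NSD1 median of -0.53 between the days was lower than its -0.33 against untreated, its day 3 median being 0.14.

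Whether the fusions differed in the day 5 effect was tested gene by gene. The F-test over the 3 fusions called 30 of 50 genes, against 25.9% of all genes. That count was 17 when only untreated libraries titled day 5 were used, 21 without NUP98-JARID1A day 5 replicate 3 and 41 without its replicate 1. The smallest adjusted p were those of Mcm7 (4.02e-05), Mcm5 (0.000118) and Lig1 (0.000193). Against NUP98-DDX10, the NUP98-JARID1A effect was lower in 36 genes and higher in 0, with a median difference of -0.69 (background 11.2% lower, 11.9% higher). Mcm7 differed by -0.86 ± 0.12 and Chaf1b by -0.99 ± 0.18 on the log2 scale. The NUP98-NSD1 effect was lower than that of NUP98-DDX10 in 1 gene, Dtl, which was named after its values were seen, by -0.62 ± 0.17 (adjusted p = 0.02), and higher in 0 (background 2.82% lower, 5.5% higher). Between NUP98-JARID1A and NUP98-NSD1, 9 genes had the lower effect in NUP98-JARID1A and 0 the higher (background 5.99% lower, 5.6% higher). They were Mcm5 (-0.66 ± 0.12), Mcm7 (-0.58 ± 0.12), Mcm10, Gins2, Rfc5, Pold2, Pole, Lig1 and Chaf1a.

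At day 3 the F-test called 1 gene, Mcm5 (adjusted p = 0.0299, background 7.05%), a call lost in 6 of 33 fits that left out 1 library, each a NUP98-JARID1A day 3 or a NUP98-NSD1 untreated or day 3 library. In pairs, the day 3 effect of NUP98-JARID1A was lower than that of NUP98-NSD1 in 2 genes, Mcm5 at -0.47 ± 0.12 (adjusted p = 0.0183) and Lig1 at -0.46 ± 0.12 (adjusted p = 0.0259), and higher in 0 (background 2.37% and 2.92%). Against NUP98-DDX10 limma called 0 genes lower and 0 higher, both for NUP98-JARID1A (background 1.22% and 2.33%) and for NUP98-NSD1 (background 0.757% and 1.17%). At an unadjusted p under 0.05, 8 of 50 passed for NUP98-JARID1A, 7 lower and 1 higher (7.49% and 9.61% of all genes), and 6 for NUP98-NSD1, 0 lower and 6 higher (5.78% and 8% of all genes). In both edgeR called 0, and DESeq2 called 1, lower in NUP98-JARID1A and higher in NUP98-NSD1. Before treatment the fusions differed in 35 of 50 genes, near the 69.8% of all genes. Untreated NUP98-NSD1 was lower than untreated NUP98-DDX10 in 17 genes and higher in 7 (background 20.7% and 21.2%). The lower ones included 5 of the 6 MCM genes, among them Mcm7 at -0.45 ± 0.081 (adjusted p = 6.79e-05). Untreated NUP98-JARID1A was lower than untreated NUP98-DDX10 in 8 genes and higher in 2 (background 20.1% and 21.6%), and lower than untreated NUP98-NSD1 in 13 and higher in 21 (background 29.3% each way).

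Untreated leukemia cells held more of most replication transcripts than the control libraries. In the mean of the fusions 33 of 50 were higher and 6 lower, with a median log2 fold change of 0.48, untreated over control. The background was 31.8% higher and 38.9% lower with a median of -0.10, so most genes tested differed. Without control replicate 3 the counts were 34 and 7. By fusion, 32 were higher and 6 lower in NUP98-DDX10 (background 30.6% and 37.9%), 28 and 9 in NUP98-JARID1A (31.4% and 38%), and 29 and 2 in NUP98-NSD1 (29.7% and 34.9%). Without control replicate 3 they were 34 and 6 in NUP98-DDX10, 29 and 9 in NUP98-JARID1A, and 31 and 1 in NUP98-NSD1. Quantile normalization moved the median of all genes in the mean comparison to 0.164, with 58.6% of the calls higher in place of 44.9%, and called 35 replication genes higher and 5 lower. The 3 comparisons share their control libraries. The MCM helicase was higher in 6 of 6 genes, with a median of 1.004. Gins2 (1.66 ± 0.095), E2f1 (1.54 ± 0.14), Pold2 (1.46 ± 0.13) and Cdt1 (1.33 ± 0.16) had the highest fold changes.

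**Figure D4:**
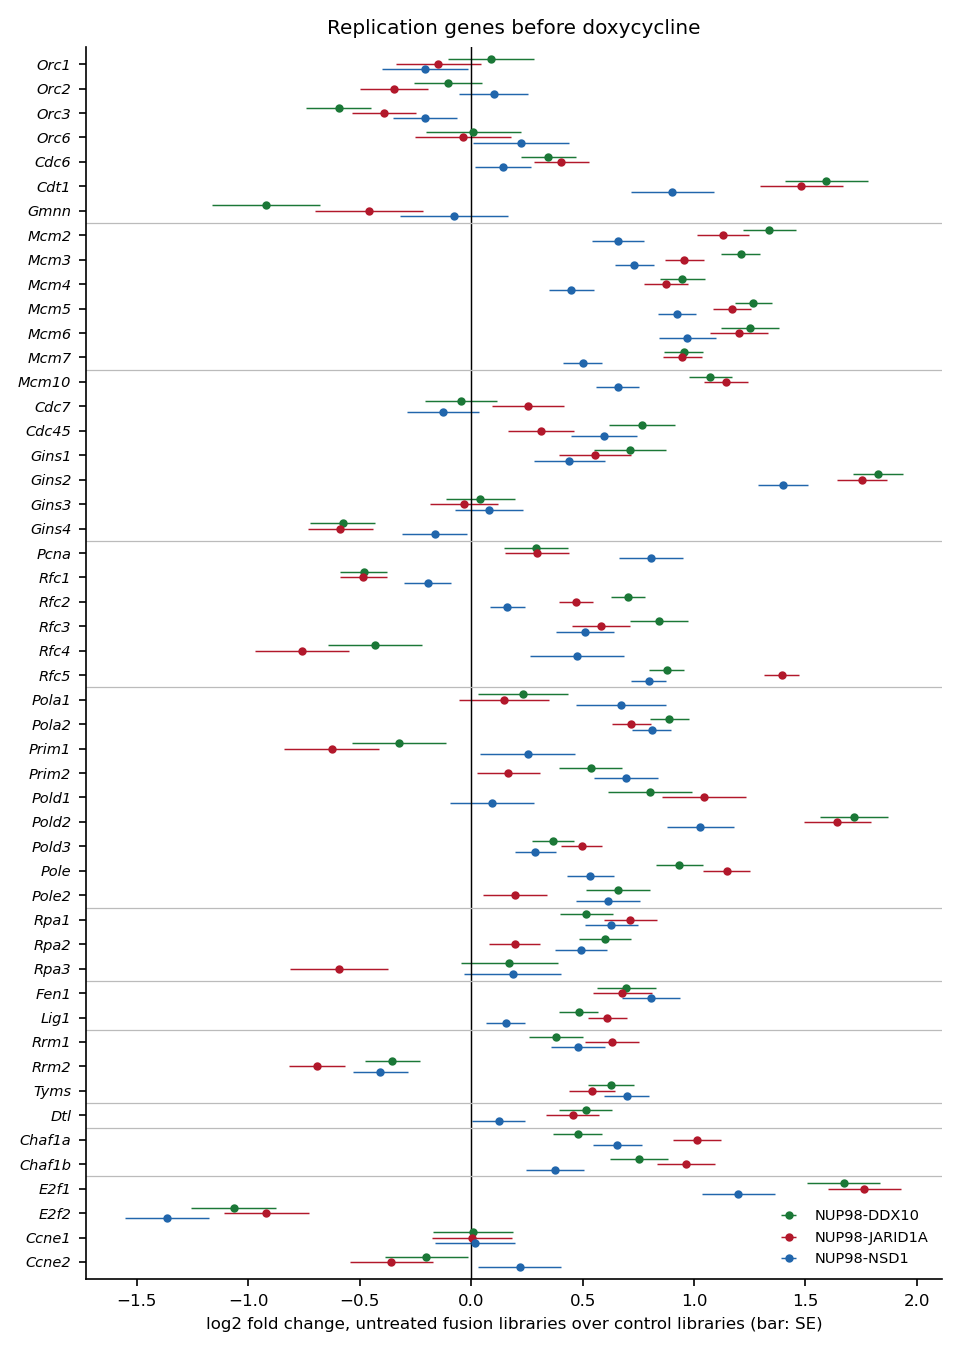
Log2 fold change of each replication gene, untreated fusion libraries over the 3 control libraries, with its standard error, by fusion (colour). The 6 MCM genes, Gins2, Pold2, Cdt1 and E2f1 lie to the right of 0 in all 3 fusions, and E2f2 and Rrm2 lie to the left.

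The controls were read gene by gene. Mcm7 had 1298, 1378 and 1624 normalized counts in the controls, Mcm5 1308, 1410.3 and 1279.9 and Mcm6 4527, 4431 and 4186, each below every untreated fusion library. Mcm2 had 2074, 2111 and 3444, with control replicate 3 nearest to the untreated NUP98-NSD1 libraries. Pole had 862, 785 and 919 normalized counts, Rfc2 2369, 2634 and 2526, Cdt1 771, 770.3 and 1155 and Chaf1b 446, 459 and 519 in the controls, again below the untreated libraries of all 3 fusions. Lig1 had 1943, 1861 and 2131 and Dtl 977, 913 and 829.5, which overlapped untreated NUP98-NSD1 and no other fusion. Rrm1 had 5961, 5817 and 5912, below all untreated libraries, Cdc45 757, 723 and 501, overlapping NUP98-JARID1A, and Rpa1 1226, 1050.3 and 1965, overlapping NUP98-DDX10. E2f2 ran the other way with 2616, 2869 and 3753 normalized counts, above every untreated fusion library, and untreated over control it was -1.12 ± 0.16 (adjusted p = 6.19e-07). Rrm2, at 5831, 5631 and 7404, was also higher in the controls, at -0.48 ± 0.10 (adjusted p = 0.000186) untreated over control, while Ccne1, at 323, 398 and 749, was at 0.01 ± 0.15 (adjusted p = 0.956). Without control replicate 3, the highest for Ccne1, that gene was at 0.36 (adjusted p = 0.0126). Orc3, Gmnn, Gins4 and Rfc1 were the other 4 genes lower in untreated leukemia, at -0.40, -0.49, -0.44 and -0.39.

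Day 5 libraries were set against the same controls. In the mean of the fusions 21 genes were higher and 11 lower (background 30.4% and 37.4%). The higher count was 15 without control replicate 1, 14 without replicate 2 and 20 without replicate 3, and the lower count 9, 10 and 10. NUP98-DDX10 at day 5 had 29 higher and 3 lower (background 29.1% and 35.7%), or 31 and 3 without control replicate 3. NUP98-JARID1A had 7 higher and 22 lower (background 30.6% and 36.7%), or 11 and 22 without it. NUP98-NSD1 had 11 and 9 (background 27.3% and 31.7%), or 14 and 7 without it. Mcm7 at day 5 over control was -0.14 ± 0.094 (adjusted p = 0.184) in NUP98-JARID1A, -0.01 ± 0.094 (adjusted p = 0.922) in NUP98-NSD1 and 0.72 ± 0.094 (adjusted p = 1.55e-07) in NUP98-DDX10. Dtl at day 5 was below the control range in NUP98-JARID1A and NUP98-NSD1, at -0.63 ± 0.13 (adjusted p = 0.000108) and -0.75 ± 0.13 (adjusted p = 1.28e-05) against the controls.

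The controls differed from the leukemias in cell type markers as well. Untreated over control, in the mean of the fusions, 10 of 10 neutrophil granule genes, 8 of 8 erythroid, 8 of 8 B cell and 8 of 8 T and NK cell genes tested were lower, with medians of -3.98, -6.79, -9.68 and -7.20. Single fusions can differ: Klrb1c of the T and NK list had 811, 925, 938 and 656 normalized counts in untreated NUP98-JARID1A. The controls had 303, 379 and 761. Of the progenitor genes, 6 of 9 were higher and 1 lower, and of the monocyte and macrophage genes 3 of 13 were higher and 5 lower. The background was 31.8% higher and 38.9% lower, and the monocyte and macrophage split was not far from it. Summed normalized counts of the B cell list were 1752 to 1934 in untreated NUP98-DDX10, 1018 to 1559.6 in NUP98-JARID1A, 1655 to 1961 in NUP98-NSD1 and 19076 to 88258 in the controls. Those of the erythroid list were 247 to 555 in untreated NUP98-DDX10, 687 to 1053 in NUP98-JARID1A, 311 to 541 in NUP98-NSD1 and 7948 to 78402 in the controls. The globin genes Hba-a1 and Hbb-bt were listed at 0 in all 33 libraries, which cannot be read as absence, since in the same controls Slc4a1, the red cell anion exchanger, had 3430, 5143 and 47247 normalized counts and Alas2, the erythroid heme enzyme, 1151, 1813 and 11848. Pax5 was at 0 in untreated NUP98-DDX10 and NUP98-JARID1A. The part of these cell types in the replication result was not tested.

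After 5 days maturation markers moved alongside the replication genes. In the mean of the fusions 13 of 13 monocyte and macrophage genes rose (median 1.54) and 9 of 10 neutrophil granule genes rose (median 1.36). There 8 of 9 progenitor genes fell (median -2.32), and the background was 22.6% higher and 23.4% lower. Monocyte and macrophage sums were 95146 to 117048 at day 5, against 23660.3 to 35513 untreated in NUP98-JARID1A, where 13 of 13 rose (background 20.1%). In NUP98-NSD1 they were 71968 to 92493 against 35652 to 40951 (11 of 13 rose, background 13.5%). In NUP98-DDX10 they were 47002 to 51775 against 42113 to 49262 (4 of 13 rose, background 6.49%). Neutrophil granule sums were 625217 to 1071003 against 198967 to 251414 in NUP98-JARID1A, 123381 to 287928 against 41091 to 91849 in NUP98-NSD1, and 53501 to 90167 against 48507 to 65847 in NUP98-DDX10. Progenitor sums were 1999.7 to 2366 against 15719 to 21002 in NUP98-JARID1A, 2539 to 4465 against 8884 to 10948 in NUP98-NSD1, and 5960.2 to 7718 against 15104 to 17979.8 in NUP98-DDX10, with no overlap in any fusion. No gene of the monocyte or neutrophil list was at 0 in every library of a group. The part of maturing cells in the replication result was not tested.

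Beyond the 50 genes, 44 other replication genes were counted. At day 5, 24 of 44 fell and 4 rose in the mean of the fusions (median -0.22, background 23.4% lower, 22.6% higher). In NUP98-JARID1A 29 fell and 3 rose (background 21.2% and 20.1%), and in NUP98-NSD1 12 and 2 (background 11.9% and 13.5%). In NUP98-DDX10 3 fell and 2 rose, shares near the background of 8.63% and 6.49%. Dnmt1, which copies methylation behind the fork, was at -0.51 ± 0.047 (adjusted p = 9.38e-10) and the fork protection gene Timeless at -0.68 ± 0.069 (adjusted p = 5.23e-09). Dna2, a flap nuclease, rose at 0.74 ± 0.07 (adjusted p = 1.27e-09), as did Samhd1, which degrades nucleotides, at 0.83 ± 0.097 (adjusted p = 6.7e-08).

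The 21 other E2F, RB and cyclin genes split, with 4 falling and 6 rising in the mean of the fusions, day 5 over untreated. These shares were near the background of 23.4% lower and 22.6% higher, and the genes named here are examples of the calls. Cdk4 fell at -0.71 ± 0.042 (adjusted p = 2.15e-13) and Cdk6 at -1.61 ± 0.14 (adjusted p = 2.16e-10), both kinases that phosphorylate the retinoblastoma protein. The inhibitor gene Cdkn1a rose at 0.88 ± 0.10 (adjusted p = 7.64e-08), Rb1 at 0.50 ± 0.063 (adjusted p = 2.62e-07) and Cdkn1b at 0.35 ± 0.067 (adjusted p = 0.000103). Cdk6 was already lower at day 3, at -0.67 ± 0.14 (adjusted p = 0.000865), and Cdk4 then stood at -0.08 ± 0.042 (adjusted p = 0.217).

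Mitosis genes gave another set of counts. Of 33, 2 fell and 4 rose in the mean of the fusions, day 5 over untreated (median 0.05), shares below the background of 23.4% and 22.6%. In NUP98-JARID1A 5 fell (median -0.21, background 21.2% lower). At day 3, 18 of 33 rose and 0 fell (median 0.27, background 8.67% higher, 9.88% lower). There were 16 risers in NUP98-NSD1 (background 4.55%), 4 in NUP98-JARID1A (8.11%) and 0 in NUP98-DDX10 (0.134%). Cdk1, the mitotic kinase, was at 0.47 ± 0.061 (adjusted p = 3.4e-06) at day 3 and 0.08 ± 0.061 (adjusted p = 0.317) at day 5. The replication and mitosis lists were not tested against each other.

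MYC and ribosome biogenesis genes fell beside the replication genes at day 5: 18 of 25 in the mean of the fusions (median -0.39), 25 in NUP98-JARID1A (median -1.02), 8 in NUP98-NSD1 (median -0.27) and 3 in NUP98-DDX10 (median 0.09). None rose in any of these 4 comparisons, whose backgrounds were 23.4%, 21.2%, 11.9% and 8.63% lower in that order. The NUP98-DDX10 share was not far from its background. Myc itself was at -1.04 ± 0.079 (adjusted p = 2.85e-11). Untreated over control, in the mean of the fusions, 18 of 25 were higher and 2 lower (background 31.8% and 38.9%).

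**Figure D5:**
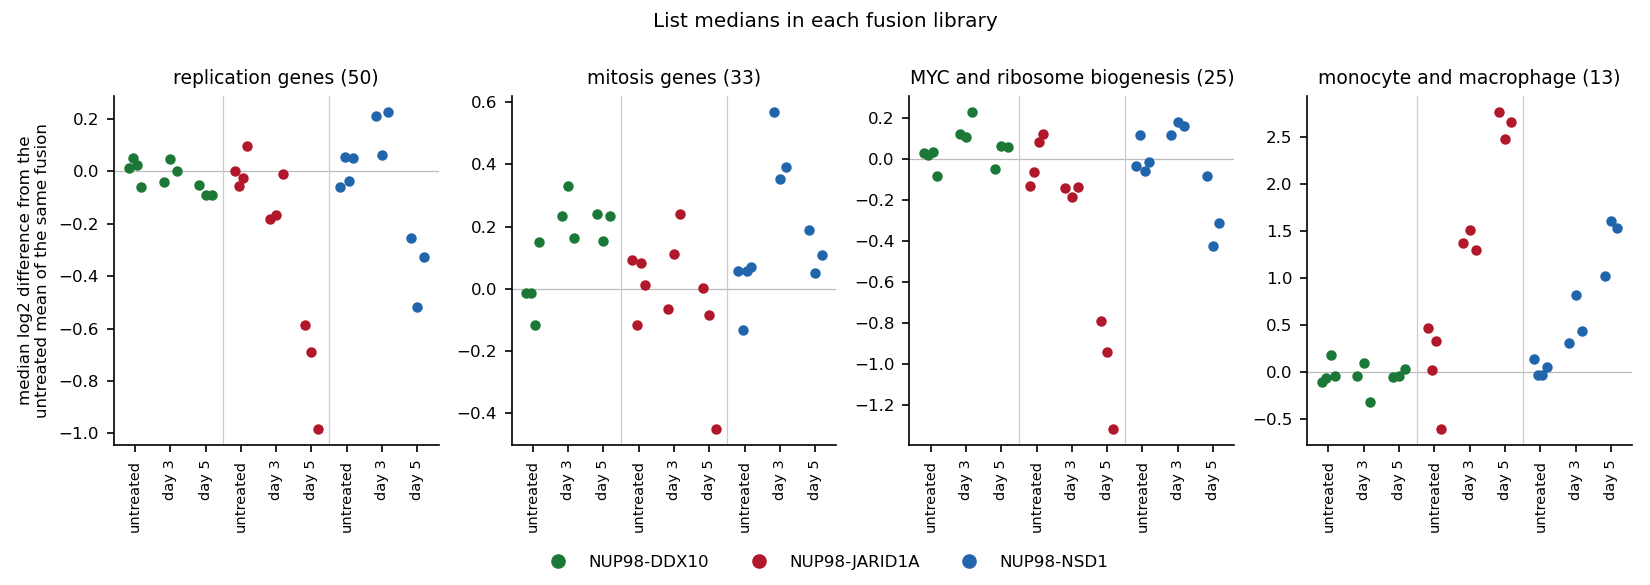
Median log2 difference from the untreated mean of the same fusion in each library, for the 50 replication genes, 33 mitosis genes, 25 MYC and ribosome biogenesis genes and 13 monocyte and macrophage genes (1 panel each, own scale). In NUP98-JARID1A at day 5 the replication medians are -0.585 to -0.984 while monocyte and macrophage medians are 2.486 to 2.769; NUP98-DDX10 stays near 0 in both.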

How the data were processed

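RNA was measured in 33 libraries. The authors deposited 1 table of signal values, normalized counts per gene; each library's values are whole reads divided by 1 size factor, as the values themselves show (100% whole within 0.01 reads, the same arithmetic also holding for 3 libraries whose factor is near one). The submitters' processing notes name STAR, featureCounts, DESeq2 and GRCm38, with no versions; whether counting used strand is not given in the sources used here. Genes with at least 10 in 3 libraries or more were kept (12682, plus 5 construct rows). Limma 3.58.1 (R 4.3.3) was fitted to log2(value + 1) over 10 group means, with a mean-variance trend and Benjamini-Hochberg adjustment over all features kept. edgeR 4.0.16 and DESeq2 1.42.0 on the recovered reads, other scalings, filters and pseudocounts, and fits leaving out each library were alternatives. Scripts were tested on simulated data for the day 5 mean of the fusions only, with the same spread setting for all genes and no outlying library. Replicates differed by more than sampling noise (chi-square per degree of freedom 6.62 to 361). Symbols and positions came from the RefSeq GRCm38.p6 table (24376 genes matched, 78 not). The members and lists were chosen with earlier results of these data known. By rule, 16 members were given in every library: the member with the highest mean value in each role, the 3 largest and 3 smallest mean day 5 fold changes, members called against the majority, and the 3 smallest p of the day 5 F-test between fusions. Other members and listed genes named are examples of a count. The 2 ChIP samples were not analysed here.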

Additional observations from a re-analysis of the deposited data

Results flagged for a closer look

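Rfc2 in NUP98-DDX10 untreated replicate 4, the library titled day 3, had 4293.2 normalized counts, set apart from 4025, 4036 and 3999 in replicates 1 to 3. It was 1 of 48 groups of 4 libraries tested, and chance flags about 1 in 20.

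The day 5 effect differed between the fusions, by limma's F-test with Benjamini-Hochberg adjustment, in 10 of the 16 named genes. The adjusted p was 4.02e-05 for Mcm7, 0.000118 for Mcm5, 0.000193 for Lig1, 0.000863 for Chaf1b, 0.00093 for Pole, 0.00159 for Dtl, 0.00242 for Mcm6, 0.00755 for Rrm1, 0.0235 for Ccne1 and 0.028 for Mcm2. Mcm7, Mcm5 and Lig1 had the smallest p of this same test, a reason for naming them, and others were named for their day 5 fold change. The count of 10 is therefore partly set by the choice of genes. Of all 50 replication genes 30 were called, against 25.9% of all genes tested. With only untreated libraries titled day 5, 17 of the 50 were called.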

How the results depend on the processing

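The number of replication genes called at day 3 was the least stable result. In NUP98-DDX10 the 1 call became 0 with no filter on low values, with TMM factors, with quantile normalization, with no mean-variance trend, with only untreated libraries titled day 5, with the replicate block and with edgeR, and ran over 0 to 1 as each library was left out. In NUP98-JARID1A the 10 calls became 5 with only untreated libraries titled day 5 (5 to 14 leaving out a library). In NUP98-NSD1 the 4 calls became 2 with no filter and 2 with only untreated libraries titled day 5 (1 to 6 leaving out a library). The cause was not tested.

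At day 5, the 6 genes lower in NUP98-DDX10 became 11 when the controls were left out of the fit and 11 with DESeq2 (3 to 12 leaving out a library). The 25 lower in NUP98-NSD1 ran over 14 to 29 leaving out a library and 21 to 30 under the other settings. The 30 genes that differed between fusions became 17 with only untreated libraries titled day 5. The 39 genes lower in the mean of the fusions ran over 37 to 42 across all settings. Of the values for single named genes in the mean of the fusions under alternatives, 1417 kept their direction and side of the threshold, 14 passed it newly, all Pole at day 3, 9 lost it, 7 of them Cdc45 at day 5 and 2 Ccne1 at day 3, and 0 reversed. Calls within a single fusion are not among these.

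Replicate numbers showed no steady pairing: of 27 same-numbered pairs, 6 had a correlation of deviations over 0.1 (range -0.627 to 0.628). Between untreated and day 5, same-numbered pairs stood at 0.628, 0.345 and 0.211 in NUP98-JARID1A and 0.166, 0.073 and 0.372 in NUP98-NSD1. In NUP98-DDX10 they stood at -0.095, -0.422 and -0.237. Deviations within groups of 3 libraries cannot settle whether libraries are paired. With the replicate block 37 genes fell in the mean of the fusions at day 5, 37 in NUP98-JARID1A, 26 in NUP98-NSD1 and 7 in NUP98-DDX10, 24 differed between fusions, and Cdc45 had adjusted p = 0.0707. Comparisons with the controls were not run with the block or with fusion libraries alone, and the F-tests were not run with DESeq2.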
